A study of Mus musculus with 6 samples.

Results

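The J and C end of the Igk light chain locus, with the kappa enhancers and the neighbouring gene Rpia, was described from ATAC-seq peak lists of mouse pro-B cell lines. Members were chosen by position alone. Peaks of the 6 lists that shared 1 bp or more were joined into regions, and those with their midpoint in mm9 chr6:70650000-70750000 were kept. This gave 27 of 149724 regions in all, of which 12 were present in every list. They are numbered from 1 to 27 from the centromeric side. Just inside the window lay region 1 (70652706 to 70652924, 1 list) and region 27 (70747716 to 70748502, 6 lists). The nearest regions outside it, at 70648135 to 70648617 and 70754513 to 70754987, were present in all 6 lists.

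ATAC-seq cuts open chromatin with a transposase, so a peak marks a place where DNA was accessible in many cells. The 6 libraries come from bone marrow pro-B cell lines of strain 129SV, all RAG2-deficient, grown in medium with serum and 2-mercaptoethanol and left untreated. WT is the line with wild type IgH alleles. CBE_1 and CBE_2 are separate lines labelled IGCR1-/-, after the intergenic control element of the IgH locus that their alleles carry in mutated form. Each line has 2 libraries of 200000 cells, numbered in accession order. The labels do not say whether duplicates came from separate cultures or whether a line is 1 clone. With 1 WT line, a difference of genotype and one between cell lines cannot be told apart. The Igk locus itself was not the target of the mutation. The lists carry no gene names, so the pro-B identity of the lines was not checked against marker genes.

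A kappa light chain gene is assembled when RAG joins a V kappa segment to a J kappa segment, upstream of Igkc, the single exon that encodes the constant region of the kappa chain. Because every line here lacks RAG2, the locus is expected in its unrearranged form, and kappa joining normally follows heavy chain joining in the later pre-B stage. The intronic enhancer lies between the J segments and Igkc. The 3′ enhancer and the distal enhancer Ed follow downstream of Igkc, in that order. CTCF-binding elements named Cer and Sis lie between the V and J segments. In the RefSeq gene table of GRCm38.p6, the J segments Igkj1 to Igkj5 are followed by Igkc, a long noncoding RNA and then Rpia, the next protein-coding gene. Rpia encodes ribose 5-phosphate isomerase A, an enzyme of the pentose phosphate pathway used in all cell types. Elements are placed on mm9 below from general knowledge, approximately and without an mm9 annotation. Positions are 1-based.

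The Rpia promoter is shown because the strongest region of the window lies where Rpia is placed to start. The 250 bases before its start, from RefSeq in GRCm38.p6 (chr6:70792176-70792425, minus strand, a build whose positions do not apply to mm9), read:
Rpia promoter: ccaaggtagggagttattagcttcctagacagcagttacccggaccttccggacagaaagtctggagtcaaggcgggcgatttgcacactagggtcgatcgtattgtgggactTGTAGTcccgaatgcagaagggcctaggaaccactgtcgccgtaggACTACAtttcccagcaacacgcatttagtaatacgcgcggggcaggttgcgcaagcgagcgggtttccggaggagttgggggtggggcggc
Capitals mark the 2 matches to ACTACA, searched on both strands, part of the longer sequence known to be bound by the transcription factors THAP11 and ZNF143. One match lies on the opposite strand 137 to 132 bases before the start, and the other on the same strand 91 to 86 bases before it. Of 32851 promoter windows of this length in the table, 8.92% held at least 1 match and 0.977% held at least 2. The core CCGGAA, bound by ETS factors and searched on both strands, matched 2 times, with no overlap with the capitals, and 2.49% of windows held as many. A match is a description of the letters and not a bound site. The motifs were chosen after the sequence was seen. The window held 18 CpG dinucleotides, and 21.7% of all windows held as many.

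The window was dense in peaks. Its 27 regions compare with a median of 3 over the 1465 windows of 100 kb tiled along chromosome 6, and 2.46% of those windows held at least as many. The 12 shared regions were matched or exceeded by 1.502% of windows. The WT lists had 22 and 23 peaks in it, the CBE_1 lists 17 and 19, and the CBE_2 lists 17 and 16. WT had the most peaks here as it had in the whole lists, which held from 72318 to 112241 peaks. Of the 27 regions, 44.4% were present in all 6 lists, against 31.9% of all merged regions. Another 5 (18.5%) were found in 1 list only, against 27.9%. In the 20.91 kb between regions 24 and 25, within the part assigned to Rpia, no list had a peak.

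**Figure D1:**
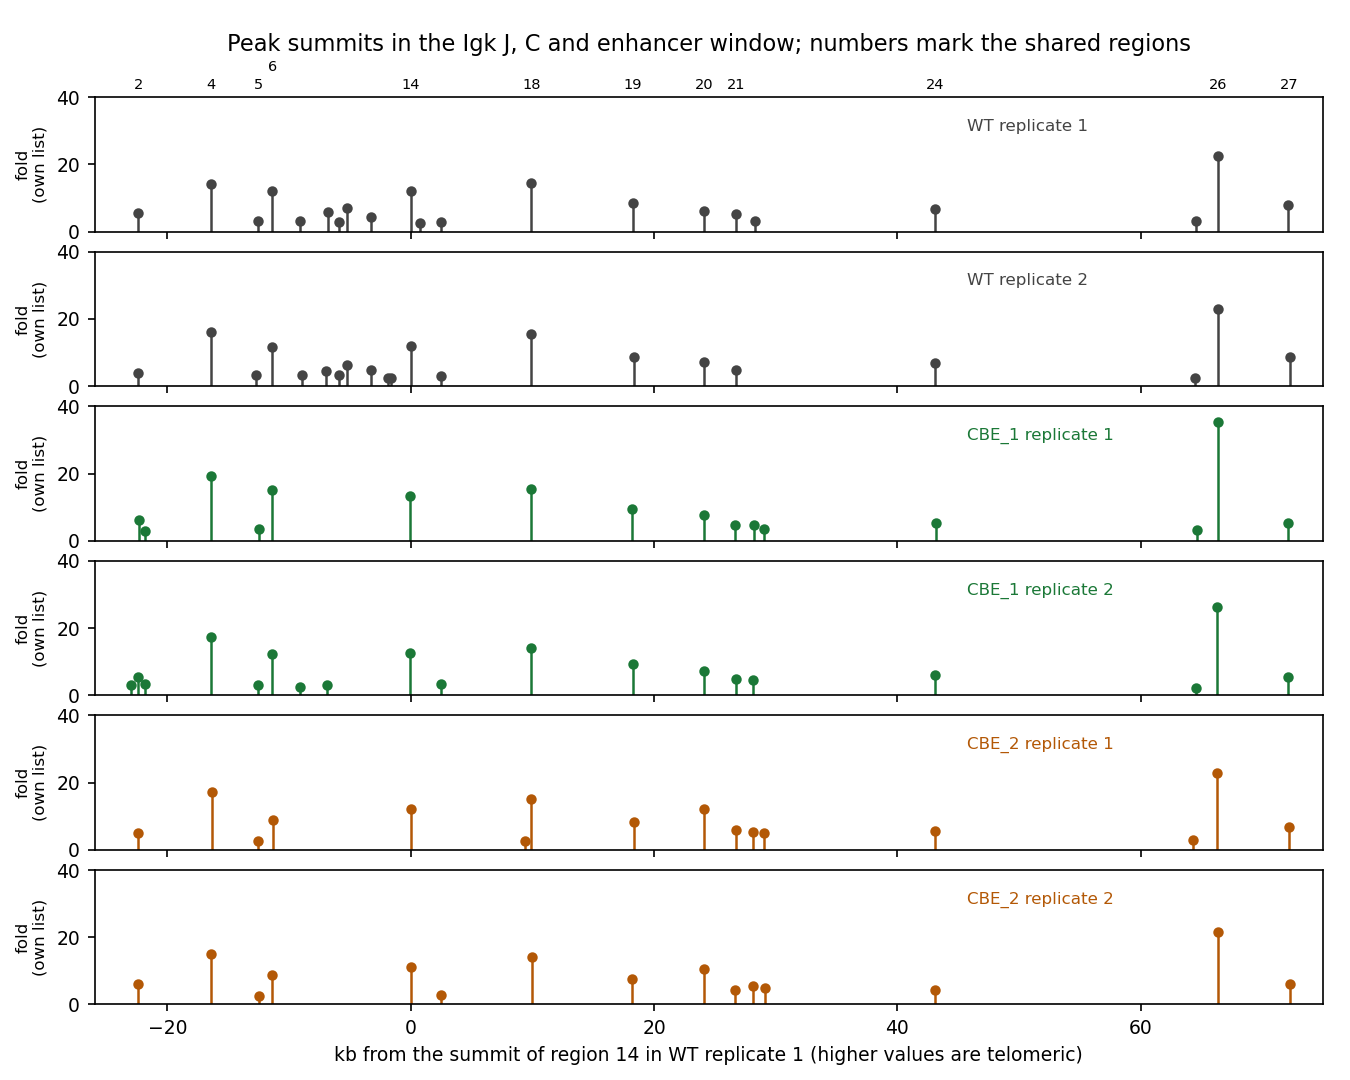
Summit of the highest peak of each region in each of the 6 libraries, against its distance in kb from the summit of region 14; the height is the authors' fold over background in that list, and numbers mark the 12 shared regions. The same tall summits recur in every library, with region 26 the highest in each, while the low summits between regions 6 and 14 are mostly in the WT libraries.

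Values are given on 2 scales. The fold is the authors' peak height over background, which is not comparable between lists. The percentile is the rank of a region's highest fold among the 47767 regions present in all 6 lists, from 0 (lowest) to 100 (highest) in that library. A region is said to stand above WT when each mutated library concerned has a higher percentile than either WT library. With 2 WT libraries against 4, the smallest p-value of the two-sided exact permutation test is 0.0667, and with 2 libraries against 2 it is 0.333, so no region can pass 0.05. CBE_1 and CBE_2 are set against the same WT libraries. Between duplicates the percentile of the shared members varied with a median SD of 3.20 points within lines, equal to the 3.20 points over all shared regions.

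The region placed at the intronic enhancer and Igkc was open in every library. Region 14 (70675545 to 70676431, 887 bp) had folds of 12.2 and 11.9 for WT, 13.3 and 12.7 for CBE_1, and 12.02 and 11.3 for CBE_2. Its 6 summits fell within 36 bp of one another, against a median of 100 bp over all shared regions. Its percentiles were 66.5 and 65.1 for WT, 72.0 and 72.9 for CBE_1, and 67.5 and 66.4 for CBE_2. Both CBE_1 libraries lay above both WT libraries, by 6.68 points on average with an SD within lines of 0.823 points. Of all shared regions, 27.8% had a CBE_1 difference from WT at least as high. CBE_2 replicate 2 lay between the WT libraries. Near it, region 16 (70678143 to 70678485) was weak, with folds of 2.90 to 3.34 in 4 lists and no peak in CBE_1 replicate 1 or CBE_2 replicate 1. Region 15 (70676478 to 70676692), 46 bp beyond region 14, was a peak of fold 2.49 that WT replicate 1 alone had.

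The region placed at the 3′ enhancer had the closest line means of the 12 shared regions. Region 18 (70685344 to 70686325, 982 bp) had folds of 14.5 and 15.6 for WT, 15.5 and 13.97 for CBE_1, and 15.1 and 13.96 for CBE_2. Its percentiles were 74.4 and 77.7 for WT, 76.02 and 76.03 for CBE_1, and 77.7 and 76.3 for CBE_2. All 4 mutated libraries fell within the range of the WT libraries. The mutated libraries averaged 0.458 points above WT, with an SD within lines of 1.47 points. Region 17 (70685069 to 70685279), 64 bp before it, was found in CBE_2 replicate 1 alone with a fold of 2.57. The summit of region 18 lay 9.88 kb on the telomeric side of that of region 14.

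A further 8.40 kb on lay region 19 (70693786 to 70694588, 803 bp), in the part where the distal enhancer Ed is placed. Its folds were 8.55 and 8.57 for WT, 9.35 and 9.38 for CBE_1, and 8.34 and 7.62 for CBE_2. The percentiles were 50.9 and 51.1 for WT, 62.7 and 63.1 for CBE_1, and 52.3 and 49.2 for CBE_2. CBE_1 stood 11.9 points above WT, and 16.1% of all shared regions had a difference at least as high. The CBE_2 libraries lay on either side of WT. Ordered from the highest rank, regions 18, 14 and 19 ran in that order in each of the 6 libraries. Region 20 fell at the telomeric edge of the part placed at Ed and ended past that edge, which is approximate. Its summit lay 5.82 kb from that of region 19 in WT replicate 1. Whether it belongs to Ed was not determined. Region 20 had no fixed place in the order above. It ranked below region 19 in the WT and CBE_1 libraries and above it in both CBE_2 libraries. In CBE_2 replicate 1 it also ranked above region 14.

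Region 20 (70699608 to 70700268, 661 bp), the next on the telomeric side, had the largest mean difference between the mutated lines and WT among the 12 shared regions. Its folds were 6.06 and 7.14 for WT, 7.69 and 7.19 for CBE_1, and 12.1 and 10.4 for CBE_2. Its percentiles were 32.9 and 42.3 for WT, 56.6 and 53.4 for CBE_1, and 67.9 and 63.0 for CBE_2. The lines did not overlap, with WT lowest and CBE_2 highest. The mutated libraries averaged 22.6 points above WT (exact permutation p = 0.0667, two-sided, the smallest the design allows; Benjamini-Hochberg adjusted over all shared regions, 0.286). Differences at least as high were found in 4.26% of shared regions. CBE_2 exceeded WT by 27.9 points and CBE_1 by 17.4 points, with an SD within lines of 4.50 points. The 6 summits lay within 14 bp, the narrowest range of the 12 shared regions, so the ranks differed while the position of the summit did not move beyond that range.

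Regions 22 and 23, further on, were weaker and had a peak in more of the mutated lists than of the WT lists. Region 22 (70703782 to 70704358) had a fold of 3.03 in WT replicate 1, no peak in WT replicate 2, 4.83 and 4.59 in CBE_1, and 5.27 and 5.37 in CBE_2. Among the 48439 regions shared by those 5 lists, a ranking added after the values were seen, it stood at 3.07 in WT replicate 1, 35.0 and 30.2 in CBE_1, and 28.1 and 30.1 in CBE_2. Region 23 (70704753 to 70705194) had no peak in WT, 3.47 in CBE_1 replicate 1, no peak in CBE_1 replicate 2, and 5.15 and 4.83 in CBE_2. Region 21 (70702350 to 70702844), between these and region 20, was higher in both CBE_1 libraries than in both WT libraries, by 8.87 points, while CBE_2 overlapped both lines. Its percentiles were 25.2 and 21.9 for WT, 32.4 and 32.3 for CBE_1, and 32.7 and 17.8 for CBE_2.

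In regions 7 to 13, just on the centromeric side of region 14, WT had peaks and the mutated lines had few or none. Between regions 6 and 14, a stretch of 10.86 kb that ends in the part where the J kappa segments are placed, WT had 5 and 7 peaks, CBE_1 had 0 and 2, and CBE_2 had none in either library. Across the genome, 2040 of the 47747 intervals between neighbouring shared regions had at least 5 peaks in both WT lists, and 84 of these (4.12%) had none in either CBE_2 list. The interval was singled out after its values were seen, so this share is a description. Over the whole window, 8 of the 27 members (29.6%) were in a WT list and in no CBE_2 list, near the 27% of all merged regions.

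Of its regions, 3 were WT-only, meaning a peak in both WT lists and in none of the other 4. Region 9 (70669687 to 70670018) had folds of 2.81 and 3.30, region 10 (70670300 to 70670929) folds of 7.14 and 6.15, and region 11 (70672383 to 70672930) folds of 4.44 and 4.94. Region 10 stood at percentiles 72.8 and 66.3 of the whole WT lists, region 11 at 54.4 and 57.3, and region 9 at 17.8 and 32.0. The summits of region 10 differed by 1 bp between the WT libraries, at 70670576 and 70670575. The WT-only share of the members, 3 of 27 (11.1%), was near the 8.68% of all merged regions, so their number was close to the background share. Without CBE_1 replicate 2, regions 7 and 8 joined them, which made 5. Without WT replicate 1 there were also 5, with regions 12 and 13. At least as strong by the lower of the WT percentiles were 5.01% of the 13003 WT-only regions of the genome for region 10, 11.6% for region 11 and 62.3% for region 9. They followed one another with no other region between. Of the 10510 runs of WT-only regions in the genome, single regions included, 4.32% held 3 or more. The run is the longest among the members and was picked after its values were seen. The shares for strength and for runs are therefore descriptions.

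The pileup behind these folds was small. Inferred from the fold under a Poisson model of each list, the reads piled up at the summits of region 10 numbered 65 and 55 in WT, with exact 95% Poisson intervals of 50.2 to 82.8 and 41.4 to 71.6. Region 11 had 40 and 44. The weakest peak anywhere in a list had 14 to 19, and a place with no peak is one that did not meet its list's threshold, not one shown to be closed. The intervals cover counting error only.

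The other regions of the stretch were not WT-only. Region 8 (70668391 to 70669373) had folds of 5.84 and 4.61 in WT and 2.92 in CBE_1 replicate 2. Region 7 (70666544 to 70667357) had folds of 3.14 and 3.30 in WT and 2.61 in CBE_1 replicate 2. Neither had a peak in CBE_1 replicate 1 or in CBE_2. Regions 12 and 13 were found in WT replicate 2 alone, with folds of 2.42 and 2.53. CBE_1 replicate 1 had the lowest inferred background of all lists, 5.63 against 7.16 to 8.59, and the fewest peaks. With all 6 lists cut to the 72318 best peaks, regions 10 and 11 were again WT-only and region 9 was not.

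**Figure D2:**
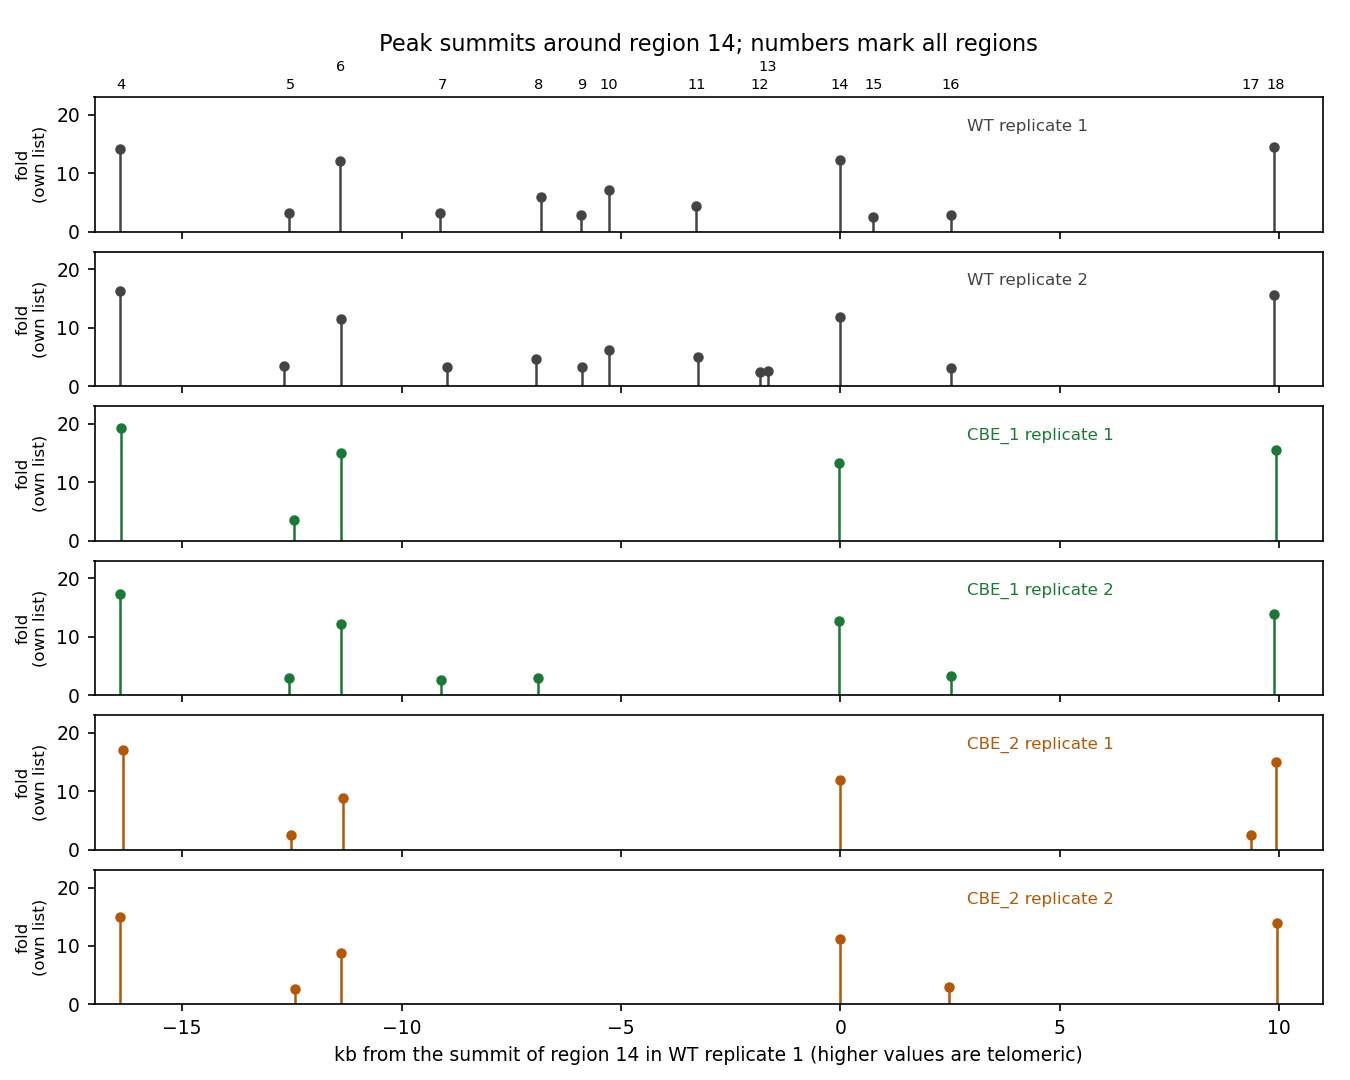
Summits from region 4 to region 18 by library, as distance in kb from the summit of region 14, with the fold of each peak in its own list as height. Between regions 6 and 14 the WT libraries have 5 and 7 summits, CBE_1 replicate 2 has 2, and the other 3 libraries have none.

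Beyond this stretch, toward the V segments, lay the strong regions 4 and 6, in the part where Cer and Sis are known to lie. Which region holds which element was not determined. Region 4 (70659044 to 70660779, 1736 bp) had folds of 14.2 and 16.3 for WT, 19.3 and 17.3 for CBE_1, and 17.2 and 15.03 for CBE_2. Its percentiles were 73.3 and 79.9 for WT, 81.8 and 84.2 for CBE_1, and 83.9 and 80.2 for CBE_2. All 4 mutated libraries lay above both WT libraries, by 5.91 points on average against an SD within lines of 3.27 points (exact permutation p = 0.0667). Of all shared regions, 24.7% had a difference at least as high. Between WT replicate 2 and CBE_2 replicate 2 the gap was small, and the separation was lost when regions were ranked among those of chromosome 6 only. The difference was 2.53 points without WT replicate 1, and 17.6 points when the mean fold of a region's peaks stood for it in place of the highest. WT replicate 2 alone had 2 peaks in region 4, so the mean changed the fold of that library only.

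Region 6 (70663646 to 70664684, 1039 bp) separated the mutated lines from each other. Its folds were 12.1 and 11.5 for WT, 15.1 and 12.2 for CBE_1, and 8.95 and 8.80 for CBE_2. Its percentiles were 66.1 and 63.9 for WT, 75.3 and 71.5 for CBE_1, and 55.5 and 56.0 for CBE_2. CBE_1 lay above CBE_2 by 17.6 points against an SD within lines of 1.81 points, with WT between them and no overlap between any lines. The mean over the 4 mutated libraries therefore differed from WT by only -0.419 points. The sign of this small value changed without WT replicate 1 or either CBE_2 library, and the value was 6.91 points when the mean fold of a region's peaks stood for it. CBE_1 replicate 2 alone had 1 peak in region 6, so the mean changed the fold of every other library but not its own.

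The remaining regions of this side were lower than regions 4 and 6. Region 2 had folds of 5.41 and 3.96 for WT, 6.18 and 5.52 for CBE_1, and 4.90 and 6.01 for CBE_2. Region 2 (70653197 to 70653751) had percentiles of 26.3 and 10.9 for WT, 47.5 and 40.6 for CBE_1, and 23.3 and 36.5 for CBE_2. CBE_1 stood 25.4 points above WT without overlap, and CBE_2 overlapped WT. Its SD within lines, 8.72 points, was the highest of the 12 shared regions. Region 5 (70663084 to 70663538) was weak, with folds of 2.57 to 3.62. It stood at 15.3 or lower in every library, and near the floor in CBE_2, at 0.352 and 0.438. Region 3 (70653885 to 70654162) was found in both CBE_1 lists alone, with folds of 3.02 and 3.44. Region 1 was found in CBE_1 replicate 2 alone, with a fold of 2.92. CBE_1-only regions made up 0.667% of all merged regions. No member was in all WT and CBE_2 lists and absent from CBE_1 (5.05% of all regions), or in all WT and CBE_1 lists and absent from CBE_2 (0.653%). No member was present in all 4 mutated lists and neither WT list, a pattern of 1.52% of all regions. There was 1 such member without WT replicate 1 (region 22) or without CBE_1 replicate 2 (region 23).

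The widest and strongest region lay where Rpia is placed to start. Region 26 (70740703 to 70743335, 2633 bp) had folds of 22.4 and 22.96 for WT, 35.3 and 26.2 for CBE_1, and 22.8 and 21.5 for CBE_2. It ranked 1858th and 1708th in the WT lists, 425th and 488th in CBE_1, and 1927th and 1696th in CBE_2. Its percentiles among the shared regions were 96.03 and 96.3 for WT, 99.1 and 98.95 for CBE_1, and 95.9 and 96.4 for CBE_2. CBE_1 exceeded both other lines, by 2.84 points over WT against an SD within lines of 0.253 points, and CBE_2 overlapped WT. A CBE_1 difference from WT at least as high was found in 40.4% of all shared regions. The summits lay within 70 bp. Beside it, region 25 (70740114 to 70740634) was weak, with folds of 2.29 to 3.17 in 5 lists and no peak in CBE_2 replicate 2.

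Region 24 (70718699 to 70719203, 505 bp), in the part placed within or near the end of Rpia, was lower in CBE_2. Its percentiles were 38.6 and 39.8 for WT, 37.9 and 44.4 for CBE_1, and 30.1 and 17.8 for CBE_2. CBE_2 differed from WT by -15.2 points, without overlap, and 9.64% of shared regions were at least as low. Region 27 (70747716 to 70748502), on the telomeric side of Rpia, stood at 47.2 and 51.7 for WT, 37.9 and 38.4 for CBE_1, and 42.6 and 36.5 for CBE_2. It was the only member with all 4 mutated libraries below both WT libraries, with a mean difference of -10.6 points (exact permutation p = 0.0667; adjusted over all shared regions, 0.286). Differences at least as low were found in 15.1% of shared regions.

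**Figure D3:**
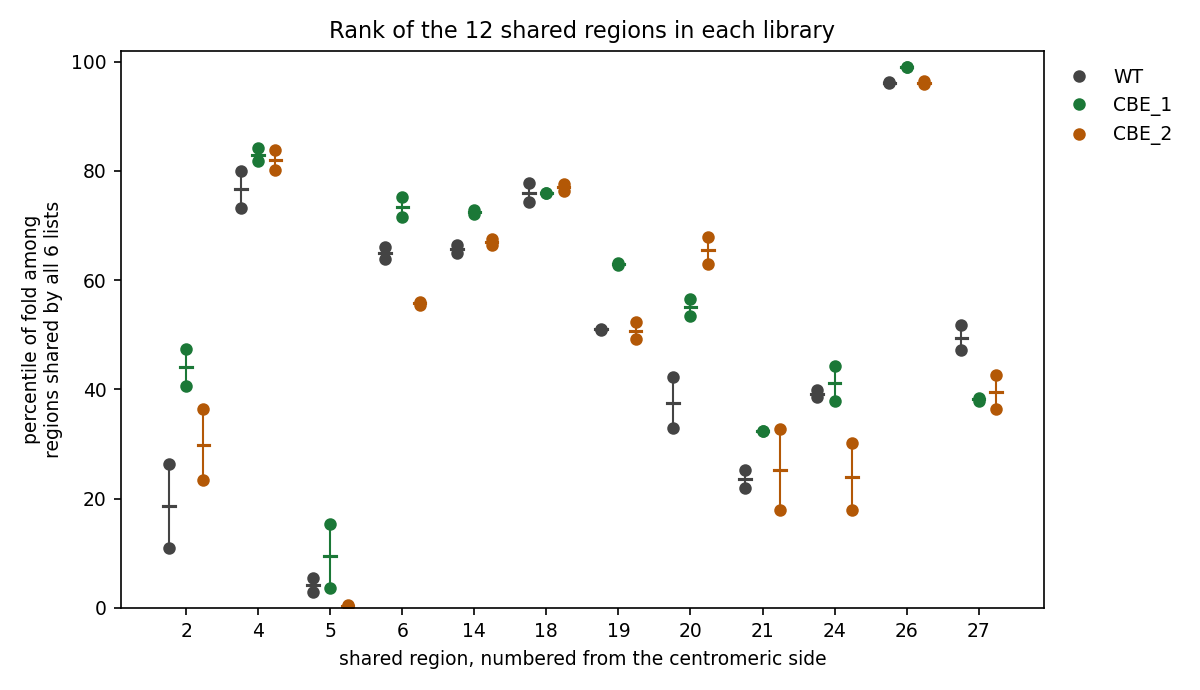
Percentile of the fold of the 12 shared regions among all regions present in the 6 lists; points joined by a line are the 2 libraries of each line, and short bars mark their mean. Region 20 orders the lines without overlap from WT to CBE_2, region 6 places WT between the mutated lines, and region 18 gives 74.4 to 77.7 in all libraries.

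Counted over the 12 shared regions, the mutated lines together did not differ from WT more often than elsewhere. All 4 mutated libraries lay above both WT libraries in 2 regions, 4 and 20 (16.7%, against 20.3% of all shared regions), and below in 1, region 27 (8.33%, against 20.1%). The first count was 4 without WT replicate 1, WT replicate 2 or CBE_2 replicate 1 and 5 without CBE_2 replicate 2, and the second was 2 without WT replicate 1 or CBE_1 replicate 2. Fewer libraries separate more easily, and the shares over all shared regions were not recomputed with 1 left out. These counts therefore have no matching share. With all 6 libraries the median difference was 2.66 points, against 0.199 points over all shared regions. The 12 regions share libraries and lie side by side, so they are not replicates.

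By line, CBE_1 stood above WT in 8 of the 12 (66.7%, against 36.9% of all shared regions) and below it in 1, region 27 (8.33%, against 33.6%). The 8 were regions 2, 4, 6, 14, 19, 20, 21 and 26. Their differences ran from the 2.84 points of region 26 to the 25.4 points of region 2, and the median over the 12 was 6.53 points, against 0.390 points over all shared regions. CBE_2 stood above the same WT libraries in 2, regions 4 and 20 (16.7%, against 33.2%), and below them in 4, regions 5, 6, 24 and 27 (33.3%, against 33.2%), with a median of 0.450 points. Set directly against CBE_2, CBE_1 stood higher in 7 of 12 (58.3%, against 34.1%) and lower in 2, regions 18 and 20 (16.7%, against 31.5%), with a median difference of 6.31 points against 0.342 points. Leaving out 1 library moved 3 of these counts by more than 1.5 times, and the shares over all shared regions were not recomputed for it. CBE_1 stood below WT in 2 regions without WT replicate 1 or CBE_1 replicate 2. CBE_2 stood above WT in 4 without WT replicate 1, WT replicate 2 or CBE_2 replicate 1, and in 5 without CBE_2 replicate 2. CBE_1 stood below CBE_2 in 4 without CBE_2 replicate 2. Chromosome 6 held a smaller share of the CBE_1 peaks, 5.13% and 5.29%, than of the WT peaks, 5.38% and 5.34%, or of the CBE_2 peaks, 5.77% and 5.75%. When regions were ranked among those of chromosome 6 alone, CBE_1 stood above WT in 8 regions, as in the genome-wide ranking, and above CBE_2 in 10.

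**Figure D4:**
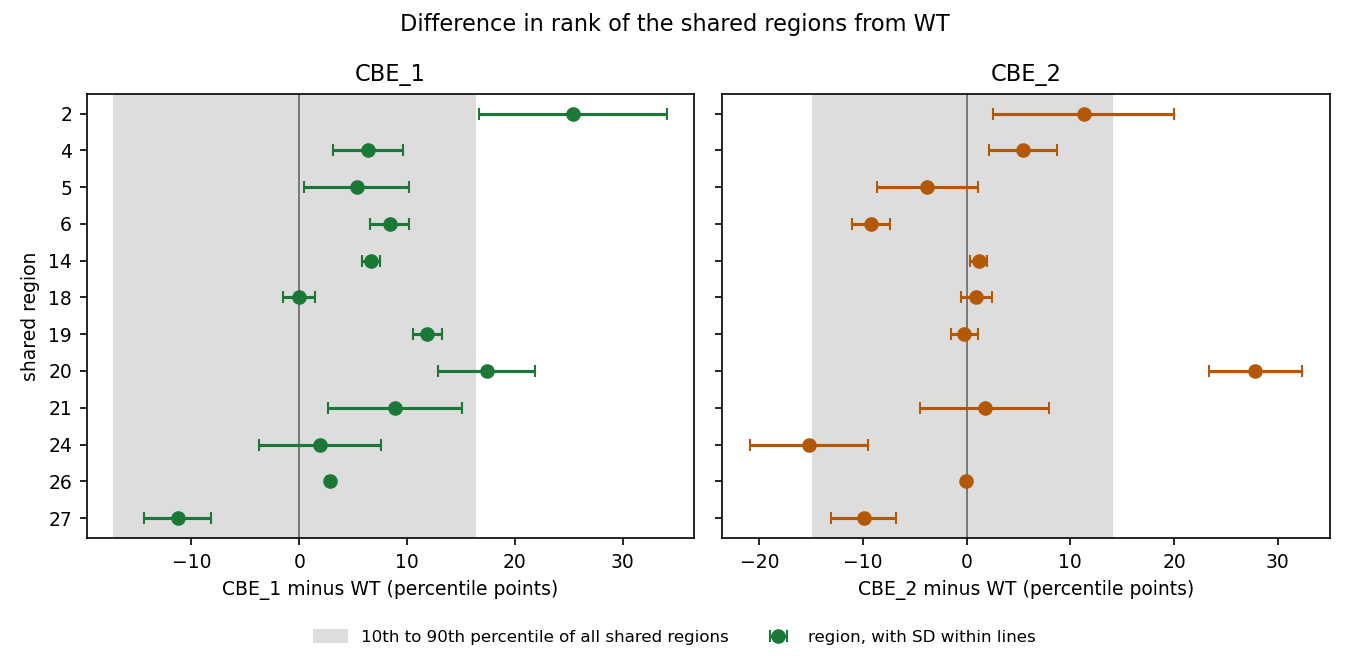
Difference in percentile of each shared region between CBE_1 and WT (left) and between CBE_2 and WT (right); points are differences of line means, bars the SD within lines, and the grey band spans the 10th to 90th percentile of all shared regions. In CBE_1 regions 2 and 20 lie beyond the band at 25.4 and 17.4 points, and in CBE_2 region 20 lies above it at 27.9 points and region 24 below it at -15.2 points.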

How the data were processed

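Single-read ATAC-seq libraries were processed by the authors with Trimmomatic, Bowtie2, SAMtools and Picard on build mm9, per the submitters' processing notes. The peak caller is not given in the sources used here. Each of the 6 deposited lists gives, per peak, a score, a fold over background (a ratio) and the −log10 of the p- and q-values. The depth of the libraries is not in the lists. Within each list all folds were whole multiples of 1 step, within 2%, and the p-values fitted a Poisson model with 1 background to within 1% for at least 99.89% of peaks; a pileup was computed from these. Python 3.11.15, pandas 2.3.3, numpy 2.4.6, scipy 1.17.1 and matplotlib 3.10.9 were used, and the scripts were tested on simulated lists. Regions were described in full by position: all 12 shared by the 6 lists, and the others by their presence and fold. The exact permutation test was two-sided over libraries and did not keep the duplicates of a line together. Members, lists and element positions were chosen with earlier results of these data known. P-values measure the spread between libraries, which may be technical. Alternatives changed the peaks kept, the overlap, the membership rule, the ranking and the libraries.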

Additional observations from a re-analysis of the deposited data

Results flagged for a closer look

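Region 6 (70663646 to 70664684), on the V side of the J segments, moved in opposite directions in the mutated lines: both CBE_1 libraries lay above both WT libraries, by 8.41 percentile points on average, and both CBE_2 libraries lay below them, by -9.24 points. The difference between these effects was not tested, since 2 libraries against 2 cannot give a p-value under 0.333, and both effects are taken from the same WT libraries.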

How the results depend on the processing

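No paired analysis was possible because the labels give no replicate numbers. Of the results, the counts by line and the ranking within 5 lists were added after seeing the data. The interval between regions 6 and 14 and the run of WT-only regions were also picked after their values were seen. The promoter motifs were chosen after the sequence was seen. With only the better 50% of each list there were 16 member regions instead of 27, 1 of them mutated-only instead of 0, and the median difference between mutated and WT libraries was 1.33 points instead of 2.66. With lists of the same length, 1 region was mutated-only and the median was 4.39 points; with the mean fold of a region's peaks it was 4.90 points. Ranked within chromosome 6, all mutated libraries stood above WT in 1 region instead of 2, CBE_2 stood above WT in 1 instead of 2, and CBE_1 stood below CBE_2 in 1 instead of 2. Leaving out 1 library gave 3 to 5 WT-only and 0 to 1 mutated-only regions, 2 to 5 shared regions above WT and 1 to 2 below it, CBE_1 below WT in 1 to 2, CBE_2 above WT in 2 to 5, and CBE_1 below CBE_2 in 2 to 4. The cause of these shifts was not tested, except that fewer peaks or libraries are compared where some are left out. The shares over all regions were not recomputed under the alternatives, so the changed counts have no background share beside them. Under all 14 alternatives region 20 stood above WT and region 27 below it. Regions 10 and 11 were WT-only in 11 of 11 alternatives on presence, and region 9 in 9. Leaving out a library could not undo a WT-only pattern and could hardly undo a full separation. Those alternatives were therefore no real test of these calls. Ranking by −log10 p and membership by any overlap left the differences of regions 20 and 27 unchanged, and so added no test. The calls by line were recomputed as counts only, not region by region. The lists hold no depth or signal outside peaks, so a missing peak gives no upper limit on accessibility.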
